A study of Mus musculus with 23 samples.

Results

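The genes described here encode the protein kinase complex mTORC1, proteins that hold it back and one of its substrates. The 10 members, Mtor, Rptor, Deptor, Tsc1, Tsc2, Ddit4, Ddit4l, Sesn1, Sesn3 and Eif4ebp1, were taken by name, with earlier results of these data known. Each was found through the RefSeq accession of its probe. They are 10 of 23707 features tested in gastrocnemius, a calf muscle, and 15465 of those features carry a gene symbol. The series compared treadmill regimens in male C57BL/6J mice of 2 ages on 1-colour Agilent arrays, 1 array per mouse.

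The groups were old HIIT (4 arrays), old MICT (4), old control (4), adult HIIT (4), adult MICT (3) and adult control (4), 23 arrays in all. Old mice began at 24 months and are labelled 25 months at sampling, and adult mice began at 5 months and are labelled 6 months. HIIT, high-intensity intermittent training, was 3 runs of 2 min at 27 m/min separated by 1 min at 5 m/min. MICT, moderate-intensity continuous training, was 1 run of 45 min at 13 m/min. Both regimens were daily for 4 weeks, and sedentary controls were only exposed to a treadmill that was off. All mice were singly housed on standard chow, and muscle was frozen after 12 h of rest that followed physiological measurements. Slides held 2 groups each, with old HIIT and old MICT on slide 3, old control and adult MICT on slide 2, and adult HIIT and adult control on slide 1.

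mTORC1 is a growth-promoting kinase complex on the lysosome that drives protein synthesis and restrains autophagy when amino acids, insulin and energy are plentiful. The small GTPase Rheb switches it on, the TSC complex switches Rheb off, DDIT4 acts through TSC under stress, and sestrins keep the amino acid arm inactive when leucine is scarce. In skeletal muscle, mTORC1 activity is tied to growth after loading, and its inhibitors are known to be induced in fasting, glucocorticoid excess and disuse. The arrays measured mRNA, and neither protein nor phosphorylation.

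Values below are log2 signals relative to each array's 75th percentile, so 0 stands for that percentile and 1 unit is a doubling. Signals of different probes are not compared with each other. Each member had 1 probe, which was well above background and unsaturated on all 23 arrays, so all 10 members passed the filter. Differences are limma estimates ± SE from a fit of 6 group means to all 23 arrays, and a difference counts as called where its adjusted p was under 0.05. In bulk muscle, fewer cells of a type and less RNA per cell cannot be told apart.

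The arrays carried skeletal muscle RNA, with all 10 skeletal muscle markers above background on all arrays. Transcripts of B, T and NK cells, neutrophils and mast cells varied most in old mice. The B and plasma cell score, a median log2 deviation from the adult control mean, was 6.03, 4.74, 2.34 and 1.92 in old controls 1 to 4 and 4.26 in old HIIT 2, and it lay between -0.24 and 0.03 in adult controls. The neutrophil and mast cell score reached 7.07 in old control 4, 5.60 in old HIIT 1 and 4.16 in old MICT 3. Calls that rest on old controls are therefore also given without old controls 1 and 2, the highest arrays for B and plasma cell genes.

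MICT in old mice was the one contrast in which members were called. Ddit4, Sesn1, Eif4ebp1, Mtor and Tsc1 rose in old MICT relative to old control, by 8.49-, 4.67-, 2.54-, 1.63- and 1.53-fold in that order, and no member fell. These 5 of 10 members stand beside 30.2% of all features called in the same contrast, 21.2% higher and 9.03% lower. The median log2 difference was 0.50 over the 10 members and 0.19 over all features. The inhibitors Ddit4 and Sesn1 and the substrate Eif4ebp1 changed most, whereas Ddit4l, Sesn3, Tsc2, Rptor and Deptor were not called.

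**Figure D1:**
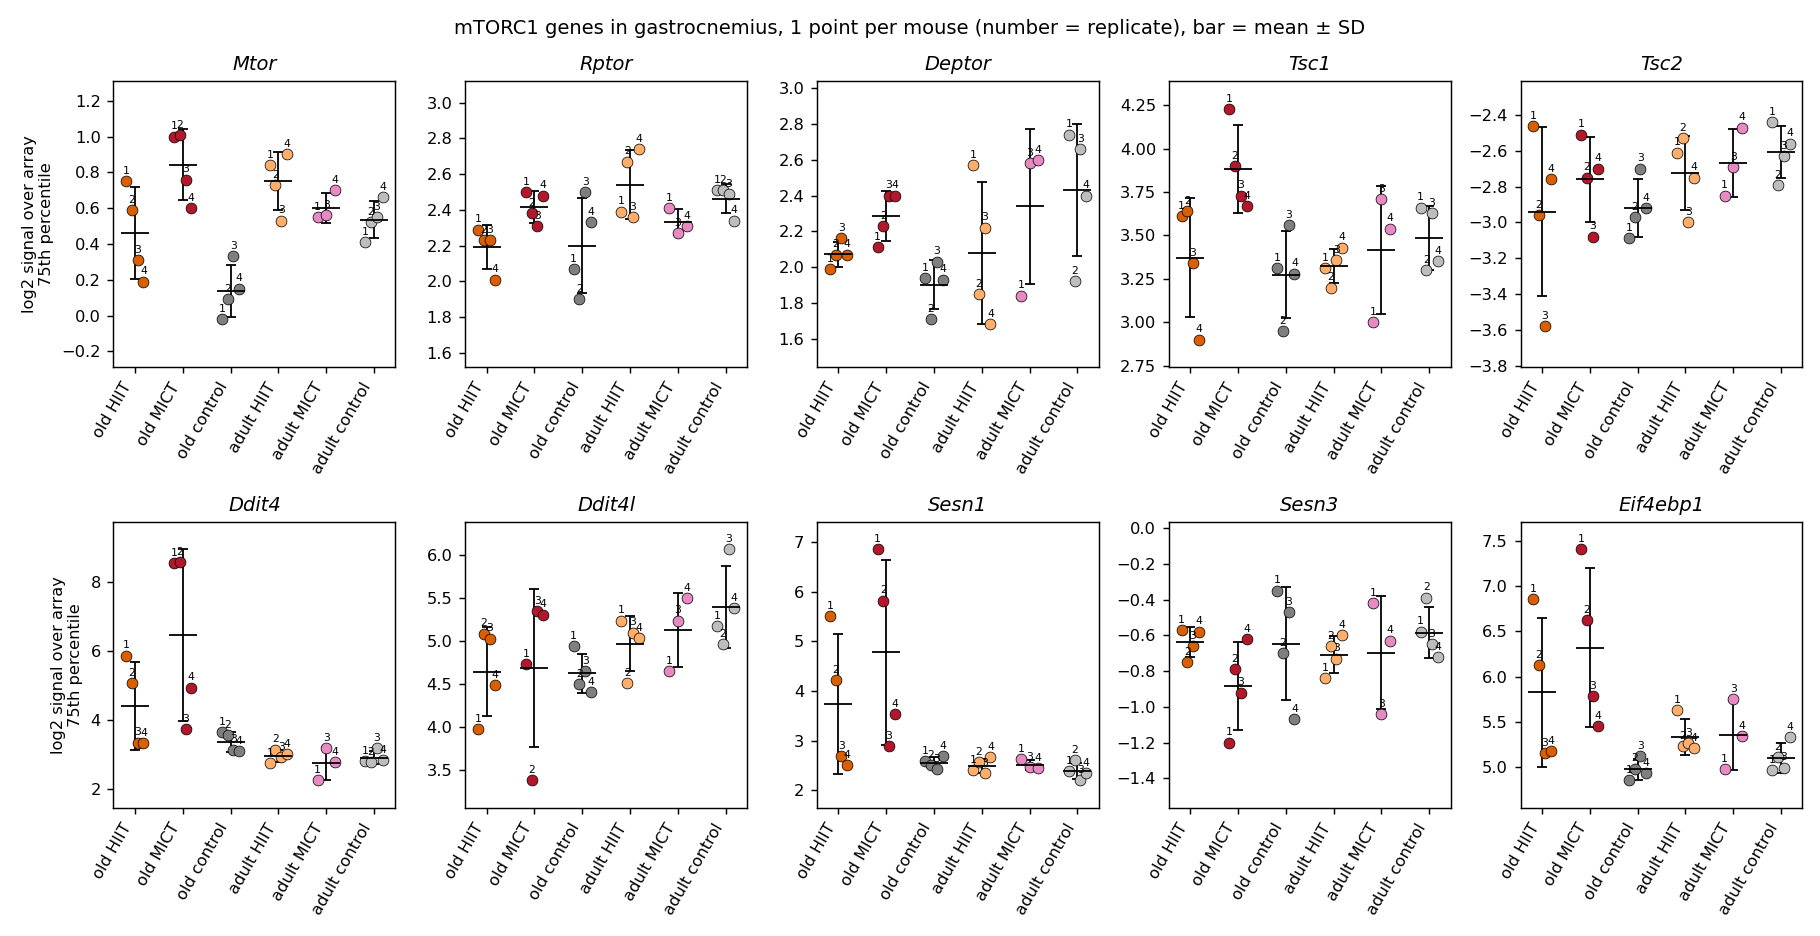
Log2 signal of each member relative to the array's 75th percentile (vertical axis, scales differ between panels) in the 6 groups, with 1 point per mouse, the replicate number above it, and mean ± SD. In the panels of Ddit4, Sesn1 and Eif4ebp1, replicates 1 and 2 of old HIIT and of old MICT stand above the other mice, with Ddit4 at 8.54 and 8.57 in old MICT 1 and 2 and between 2.25 and 3.65 in all old control and adult mice.

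Ddit4 encodes a stress-induced inhibitor, also called REDD1, that frees the TSC complex to act on Rheb. Its log2 signal was 5.86, 5.07, 3.34 and 3.32 in old HIIT 1 to 4, 8.54, 8.57, 3.73 and 4.93 in old MICT 1 to 4, against 3.65, 3.55, 3.14 and 3.09 in old control 1 to 4. Adult HIIT mice had 2.75, 3.14, 2.92 and 3.0, adult MICT mice 2.25, 3.19 and 2.78, and adult controls 2.80, 2.78, 3.18 and 2.84. All 4 old MICT mice lay above all old controls, with mice 1 and 2 far above mice 3 and 4, and in old HIIT mice 1 and 2 lay above every control and mice 3 and 4 within the control range. The difference of old MICT from old control was 3.09 ± 0.77 (limma adjusted p = 0.00901), and 9 of 23707 features rose by more. It was 2.38 without old MICT 1 (limma adjusted p = 0.0376) or without old MICT 2 (0.0361), and 3.99 without old MICT 3 (0.00185). The SD within old MICT was 2.49, against 0.28 within old control. Old HIIT differed from old control by 1.04 ± 0.77, which was not called (limma adjusted p = 0.519).

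Ddit4l encodes REDD2, a muscle-enriched relative of DDIT4 with the same inhibitory activity. Its log2 signal was 3.98, 5.09, 5.03 and 4.49 in old HIIT, 4.73, 3.38, 5.35 and 5.31 in old MICT, against 4.94, 4.50, 4.65 and 4.41 in old control. In adults it was 5.24, 4.51, 5.10 and 5.04 with HIIT, 4.65, 5.24 and 5.50 with MICT, and 5.18, 4.97, 6.07 and 5.39 in controls. The lowest signals of all belonged to old MICT 2 and old HIIT 1, which were among the highest for Ddit4, and all old controls lay below all adult controls. Over 23 arrays Ddit4 and Ddit4l had a Pearson r of -0.52 (Spearman rho -0.32), a description of arrays that share their groups. Old MICT differed from old control by 0.07 ± 0.35 (95% interval -0.66 to 0.80, limma adjusted p = 0.888).

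Sesn1 encodes sestrin 1, which binds the GATOR2 complex when leucine is scarce and is a known target of p53 and FOXO factors. Its log2 signal was 5.50, 4.22, 2.68 and 2.51 in old HIIT, 6.85, 5.82, 2.89 and 3.54 in old MICT, against 2.59, 2.50, 2.43 and 2.69 in old control. All 11 adult mice lay between 2.20 and 2.66. As for Ddit4, mice 1 and 2 of both old trained groups were high, and old MICT 3 and 4 lay closer to, but still above, every old control. The difference of old MICT from old control was 2.22 ± 0.64 (limma adjusted p = 0.0161), and 45 features rose by more. Without old MICT 1 it was 1.53 (limma adjusted p = 0.0652) and without old MICT 2 it was 1.87 (0.058), so that call needs both arrays, and without old MICT 3 or 4 it was 2.85 or 2.64. Old HIIT differed from old control by 1.17 ± 0.64 (limma adjusted p = 0.377).

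Sesn3, the sestrin 3 gene and a FOXO target, did not share this pattern. Its log2 signal was -0.57, -0.75, -0.66 and -0.58 in old HIIT, -1.20, -0.79, -0.92 and -0.62 in old MICT, against -0.35, -0.70, -0.47 and -1.07 in old control. The groups overlapped, and old MICT 1, the highest array for Sesn1, was the lowest for Sesn3. The difference of old MICT from old control was -0.24 ± 0.16 (95% interval -0.57 to 0.10, limma adjusted p = 0.255). Over 23 arrays Sesn1 and Sesn3 had a Pearson r of -0.38 (rho -0.16).

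The promoter windows of Ddit4, Ddit4l and Sesn1 are shown because Ddit4 and Sesn1 rose in old MICT whereas Ddit4l was not called. Each runs from 250 bases before to 50 after a transcription start in RefSeq on GRCm38.p6, is written 5′ to 3′ along the gene, and has its searched motifs in capitals. The Ddit4 window is chr10:59951721-59952020 on the minus strand, that of Ddit4l is chr3:137623422-137623721 on the plus strand, and the Sesn1 windows are chr10:41810324-41810623 and chr10:41887189-41887488 on the plus strand.
Ddit4: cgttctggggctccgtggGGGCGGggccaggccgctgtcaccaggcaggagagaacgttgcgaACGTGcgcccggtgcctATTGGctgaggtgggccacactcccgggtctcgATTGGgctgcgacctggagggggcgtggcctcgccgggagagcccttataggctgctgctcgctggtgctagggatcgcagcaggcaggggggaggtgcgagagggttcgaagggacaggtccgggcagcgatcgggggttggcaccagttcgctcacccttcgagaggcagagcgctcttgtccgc
Ddit4l: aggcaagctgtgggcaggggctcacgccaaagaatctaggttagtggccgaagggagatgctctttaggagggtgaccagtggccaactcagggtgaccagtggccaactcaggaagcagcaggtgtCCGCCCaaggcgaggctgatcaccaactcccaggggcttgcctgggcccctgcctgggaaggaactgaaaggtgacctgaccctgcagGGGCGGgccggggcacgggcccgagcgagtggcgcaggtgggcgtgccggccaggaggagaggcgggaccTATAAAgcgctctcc
Sesn1, start 1: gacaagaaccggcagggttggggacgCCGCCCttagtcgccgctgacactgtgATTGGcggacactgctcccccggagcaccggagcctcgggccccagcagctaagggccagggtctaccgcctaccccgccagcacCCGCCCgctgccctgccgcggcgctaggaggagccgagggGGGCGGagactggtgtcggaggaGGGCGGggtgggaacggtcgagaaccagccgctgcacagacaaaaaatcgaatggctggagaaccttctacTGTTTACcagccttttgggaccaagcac
Sesn1, start 2: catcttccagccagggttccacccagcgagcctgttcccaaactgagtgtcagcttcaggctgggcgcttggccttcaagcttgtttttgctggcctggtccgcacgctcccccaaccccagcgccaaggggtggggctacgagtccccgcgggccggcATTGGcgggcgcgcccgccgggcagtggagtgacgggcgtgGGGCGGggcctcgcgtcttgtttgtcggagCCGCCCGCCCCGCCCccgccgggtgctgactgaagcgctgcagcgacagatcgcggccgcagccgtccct

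Motifs were searched as letters on both strands, in 9 windows of the 8 members with an entry. TGTTCT, a glucocorticoid receptor half-site, was in 0 of the 9 windows and in 19% of 32851 windows of all genes. TGTTTAC, a FOXO site, was in 1, the first Sesn1 window at bases 23 to 29 after the start, and in 3.65% of all. TGATGNAA, an ATF4 and C/EBP composite site, was in 0 and in 3.97% of all. ACGTG, the core of a hypoxia response element, was in 2, Ddit4 at base -187 and Rptor, and in 19.6% of all. The letters ATTGG, which mark an inverted CCAAT box, occurred in 5 of the windows and in 37.4% of all. The GC box GGGCGG occurred in 6 of the windows, both Sesn1 windows, Ddit4 and Ddit4l among them, and in 35.7% of all. The TATA box TATAAA occurred in 1, downstream of the Ddit4l start, and in 13.6% of all. In the second Sesn1 window 3 GC boxes on the minus strand each overlap the next. GC content was 69.0% for Ddit4, 65.7% for Ddit4l and 66.7% and 71.0% for Sesn1, against a median of 52.7% for all. The window of Sesn3, which was not called either, is not shown. It held 4 matches of ATTGG and 2 of GGGCGG, with a GC content of 62.7%. A match is a run of letters and not evidence of binding.

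Eif4ebp1 encodes 4E-BP1, which blocks the cap-binding factor eIF4E until mTORC1 phosphorylates it. Its log2 signal was 6.86, 6.13, 5.15 and 5.17 in old HIIT, 7.41, 6.63, 5.78 and 5.45 in old MICT, against 4.85, 4.98, 5.12 and 4.93 in old control. In adults it was 5.63, 5.23, 5.26 and 5.21 with HIIT, 4.97, 5.75 and 5.34 with MICT, and 4.96, 5.11, 4.99 and 5.33 in controls. Every trained old mouse lay above every old control, and mice 1 and 2 of each old trained group were again the highest. Old MICT differed from old control by 1.34 ± 0.35 (limma adjusted p = 0.0107). Old HIIT differed by 0.86 ± 0.35 (1.81-fold), which was not called (limma adjusted p = 0.26) although the groups did not overlap.

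Mtor encodes the kinase itself. Its log2 signal was 0.75, 0.59, 0.31 and 0.19 in old HIIT, 1.00, 1.01, 0.76 and 0.60 in old MICT, against -0.02, 0.09, 0.33 and 0.15 in old control. Adult HIIT mice had 0.84, 0.73, 0.53 and 0.90, adult MICT mice 0.55, 0.56 and 0.70, and adult controls 0.41, 0.52, 0.55 and 0.66. All old MICT mice lay above all old controls, mice 1 and 2 were again the highest of each old trained group, and the old controls were the lowest group. Old MICT differed from old control by 0.70 ± 0.13 (limma adjusted p = 0.00342), the smallest p of the 10 members in that contrast. Old HIIT differed by 0.32 ± 0.13 (limma adjusted p = 0.264), with overlapping groups.

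Rptor encodes the scaffold that presents substrates to the kinase, and Deptor an inhibitory subunit. Rptor log2 signal was 2.29, 2.23, 2.23 and 2.01 in old HIIT, 2.50, 2.38, 2.31 and 2.48 in old MICT, against 2.07, 1.90, 2.50 and 2.33 in old control. Both trained groups overlapped old control, and old HIIT lay wholly below old MICT. Its difference in old MICT was 0.22 ± 0.12 (limma adjusted p = 0.168). It became 0.32 (0.0426) without old control 3 and 0.00 (0.995) without old controls 1 and 2. Deptor log2 signal was 1.99, 2.07, 2.16 and 2.07 in old HIIT, 2.11, 2.23, 2.40 and 2.40 in old MICT, against 1.94, 1.71, 2.03 and 1.93 in old control. All old MICT mice lay above all old controls for Deptor, yet the difference of 0.38 ± 0.19 was not called (limma adjusted p = 0.134). With the 5 called members, Deptor made 6 of 10 members whose groups did not overlap, against 16.5% of all features higher in old MICT with no overlap.

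Tsc1 and Tsc2 encode the scaffold and the GTPase-activating subunit of the TSC complex. Tsc1 log2 signal was 3.61, 3.64, 3.34 and 2.90 in old HIIT, 4.23, 3.90, 3.73 and 3.67 in old MICT, against 3.31, 2.95, 3.56 and 3.28 in old control. All old MICT mice lay above all old HIIT mice and all old controls, by narrow margins, with 3.67 in the lowest old MICT mouse against 3.64 in the highest old HIIT mouse and 3.56 in the highest control. Old MICT differed from old control by 0.61 ± 0.18 (limma adjusted p = 0.0167), and the call was lost without old control 2 (0.50, 0.0662), without old MICT 1 (0.49, 0.0624) and with quantile scaling (0.37, 0.0669). Tsc2 gave dim signals, -2.46, -2.96, -3.58 and -2.76 in old HIIT, -2.51, -2.75, -3.08 and -2.70 in old MICT, against -3.09, -2.97, -2.70 and -2.92 in old control, and these groups overlapped. Its difference in old MICT was 0.16 ± 0.20 (95% interval -0.26 to 0.59, limma adjusted p = 0.545).

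Ordered by mean, old MICT was the highest of the 6 groups for Mtor, Tsc1, Ddit4, Sesn1 and Eif4ebp1, and old HIIT came second for Ddit4, Sesn1 and Eif4ebp1. Adult control was highest for Deptor, Tsc2, Ddit4l and Sesn3, and adult HIIT for Rptor. Between neighbours in these orders the ranges overlapped for all 10 members, except Tsc1, where old MICT (mean 3.88 ± 0.25, SD, n = 4) lay above adult control (3.49 ± 0.19, SD, n = 4). Over the 23 arrays the SD was 1.70 for Ddit4, 1.27 for Sesn1 and 0.67 for Eif4ebp1, against a median SD of 0.36 for all features. It was 0.19 for Rptor and 0.21 for Sesn3.

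**Figure D2:**
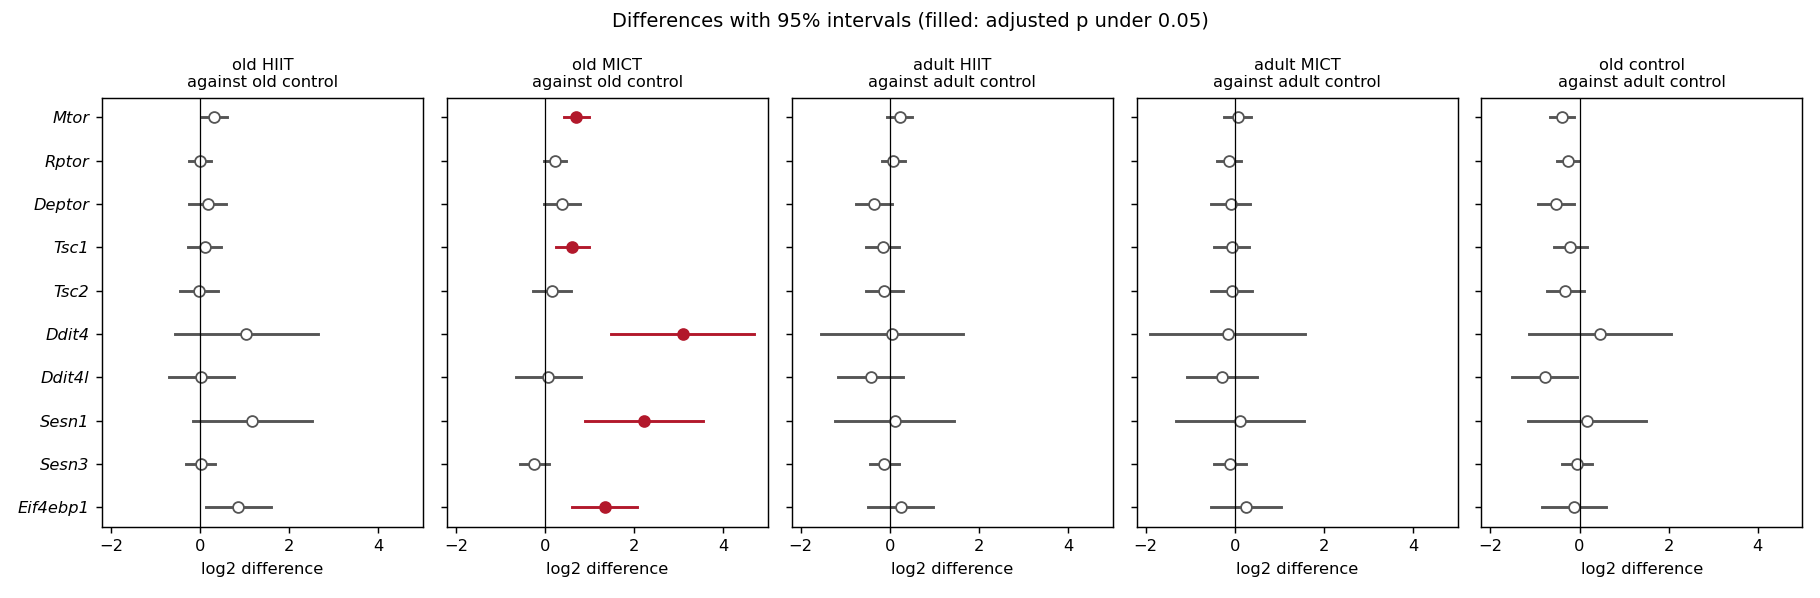
Log2 differences of the 10 members (rows) with 95% intervals in 5 contrasts (panels), filled red where the limma adjusted p was under 0.05. Filled points occur in old MICT against old control, at 3.09 for Ddit4, 2.22 for Sesn1, 1.34 for Eif4ebp1, 0.70 for Mtor and 0.61 for Tsc1.

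These 5 calls rest on all 23 arrays sharing one estimate of spread. No member was called when the fit held old MICT and old control alone (limma adjusted p from 0.052 for Mtor to 0.0817 for Sesn1), without old controls 1 and 2 (0.0626 for Mtor to 0.191 for Tsc1), in an additive fit of age, training and slide (0.729 to 0.771), or with cell composition scores as covariates (0.252 to 0.469). The Ddit4 difference was 3.09, 3.33, 2.10 and 3.19 in those fits, and the Sesn1 difference 2.22, 2.22, 1.16 and 2.52. The additive fit gives 1 MICT value for both ages. On this slide layout that value is old MICT minus old HIIT plus adult HIIT minus adult control. It holds no old control array, so the additive fit does not check old MICT against old control. Old MICT and old control lay on different slides, so no within-slide value of their difference exists.

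HIIT in old mice gave no called member, where limma called 0.434% of all features (103, and 12 without old controls 1 and 2, with 0 members called). The smallest adjusted p of a member was 0.26, and 2 members, Eif4ebp1 and Mtor, had an unadjusted p under 0.05. Eif4ebp1 was the 1 member whose groups did not overlap, against 4.34% of features higher with no overlap. The median difference was 0.13 over the members and 0.08 over all features. Set directly against old MICT, old HIIT was lower by 2.05 log2 units for Ddit4 (-2.05 ± 0.77, limma adjusted p = 0.213), by 0.38 for Mtor (-0.38 ± 0.13, 0.209) and by 0.51 for Tsc1 (-0.51 ± 0.18, 0.209). None of the 10 passed the threshold in this within-slide contrast, in which limma called 0% of features and 4045 had an unadjusted p under 0.05. Tsc1 and Rptor were the 2 members with old HIIT wholly below old MICT, against 4.51% of features. With array weights or any other alternative run for this contrast, 0 members were called.

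In adult mice no member was called after either regimen. For adult HIIT against adult control, which share a slide, limma called 0% of features, 1215 features and 0 members had an unadjusted p under 0.05, and the smallest adjusted p of a member was 0.914. Ddit4 differed by 0.05 ± 0.77, with a 95% interval from -1.55 to 1.65. That SE, like those below, uses a spread shared by all 6 groups and not that of the adult mice alone. The SD of Ddit4 was 0.16 within adult HIIT and 0.19 within adult control, against 2.49 within old MICT. For adult MICT against adult control limma called 0%, with 500 features and 0 members at an unadjusted p under 0.05. Ddit4 differed by -0.16 ± 0.83 (95% interval -1.89 to 1.57), Sesn1 by 0.12 ± 0.69 and Eif4ebp1 by 0.26 ± 0.38. The less variable members also overlapped in adults. Rptor ran from 2.36 to 2.74 in adult HIIT, 2.27 to 2.41 in adult MICT and 2.34 to 2.51 in adult control, and Deptor from 1.68 to 2.57, 1.84 to 2.6 and 1.92 to 2.74 in the same order of groups. Tsc1 ran from 3.20 to 3.43 in adult HIIT, 3.0 to 3.71 in adult MICT and 3.30 to 3.66 in adult control, and Tsc2 from -3.0 to -2.53, -2.85 to -2.47 and -2.79 to -2.44. Sesn3 ran from -0.84 to -0.60 in adult HIIT, -1.04 to -0.42 in adult MICT and -0.72 to -0.39 in adult control. Adult HIIT and adult MICT also gave 0 called members and 0% of features between them, with 0 members and 1821 features at an unadjusted p under 0.05. With limma array weights, Rptor was called higher (0.32) and Deptor lower (-0.58) in adult HIIT than in adult MICT, in a fit that called 13.8% of all features in that contrast.

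The response to MICT, training minus control, was set between ages in the same fit. It was larger in old mice by 3.24 ± 1.13 for Ddit4 (limma adjusted p = 0.113), by 2.10 ± 0.94 for Sesn1 (0.172), by 1.09 ± 0.52 for Eif4ebp1 (0.19), by 0.68 ± 0.26 for Tsc1 (0.133) and by 0.63 ± 0.19 for Mtor (0.0924). These 5 had an unadjusted p under 0.05 and none passed adjustment, in a contrast in which 0.666% of features were called. Without old MICT 3 the Ddit4 value was 4.15 (limma adjusted p = 0.0392), and without old control 3 the Mtor value was 0.70 (0.0397). Without old controls 1 and 2 the Ddit4 value was 3.48 (0.31) and the Mtor value 0.53 (0.343), and features called numbered 22, against 158 with all arrays. With array weights 1 member, Mtor, was called (0.61, limma adjusted p = 0.0369), where 10.4% of all features were. For HIIT the difference between ages had its smallest adjusted p at 0.466, for Deptor, with 0% of features called, 0 members and 2698 features at an unadjusted p under 0.05.

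Age itself, old control against adult control, gave no called member while 13.6% of features were called. That background changed with the arrays in the fit, and the 3235 features called became 24 without old controls 1 and 2. They became 674 without old control 1, 524 without old control 2, 5803 without old control 3, and 510, 718 and 848 without adult control 1, 3 and 4. The additive fit of age, training and slide called 0, but its age value is drawn from all 6 groups, so it cannot check these calls. Mtor was lower in old control (mean 0.14 ± 0.15 in old control and 0.53 ± 0.10 in adult control, SD, n = 4 each), a difference of -0.39 ± 0.13 just short of the threshold (limma adjusted p = 0.0514). Deptor differed by -0.53 ± 0.19 (0.0706) and Rptor by -0.26 ± 0.12 (0.136). Ddit4l differed by -0.78 ± 0.35 (0.125). Mtor and Ddit4l were the 2 members with all old controls below all adult controls, against 11% of all features. Mtor crossed the threshold with quantile scaling (-0.41, 0.0464), with array weights (-0.43, 0.0132, with Rptor and Deptor, where 32.3% of all features were called) and when single arrays such as old control 3 were left out (-0.46, 0.0252). Without old controls 1 and 2 Mtor differed by -0.29 (0.439), Ddit4l by -0.88 (0.385), Deptor by -0.45 (0.422) and Rptor by -0.05 (0.903). Old control also serves as the baseline of both old training contrasts, so a low old control value enters all 3.

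Beyond the members, 76 of 77 other listed genes of the pathway were tested, from mTORC1 and mTORC2 subunits to amino acid sensors, insulin signalling, AMPK and mTORC1 effectors. In old MICT 28 rose and 1 fell relative to old control, where 21.2% of all features were called higher and 9.03% lower. The median difference was 0.33, against 0.19 for all features. The number that rose was 16 without old control 2 and 18 without old MICT 1 or without old MICT 2. Without old controls 1 and 2, limma called 0 of the 76 and 398 of all features, and the median was 0.21 against 0.12 for all features, so the counts by group below hold for the fit to all arrays. Of the mTORC1 core, 4 of 8 rose, Mtor among them, with Akt1s1, the inhibitory subunit PRAS40 (0.81 ± 0.23, limma adjusted p = 0.0163), and Tti1 and Tti2, which help fold the kinase (0.45 and 0.72). Of 5 TSC and Rheb genes, 3 rose, with Rheb, the direct activator of mTORC1, at 0.64 ± 0.16 (0.00832), Rhebl1 at 0.58 and Tsc1. Transcripts of activators and of inhibitors rose in the same contrast.

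Of 4 mTORC2 subunits, Rictor, its scaffold, rose (0.54) and Prr5l fell by 1.23 on the log2 scale (SE 0.26, limma adjusted p = 0.00491). Of 26 amino acid sensing genes 6 rose and 0 fell, a share close to the 21.2% of all features called higher, and the number was 3 and 2 without old control 1 and 2 and 11 without old control 3. Among the 6 were Mios (0.65) and Seh1l (0.48) of GATOR2 and Lamtor3 (0.55) and Lamtor5 (0.36) of the Ragulator anchor. Of 13 insulin and IGF1 signalling genes 4 rose, which were Insr, the insulin receptor (0.81), Akt2 (0.56), Pik3ca (0.64) and Pdpk1 (0.47). Of 10 AMPK and Lkb1 genes 4 rose, which were Stk11, encoding Lkb1 (0.67), Cab39 (0.52), Prkab1 (0.54) and Prkab2 (0.66).

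The mTORC1 effectors held 9 of 15 called higher in old MICT, Eif4ebp1 included, where 21.2% of all features were. Their median was 0.52, against 0.19 for all features. Ulk1, the autophagy-initiating kinase that mTORC1 inhibits, rose by 1.67 ± 0.36 (3.18-fold, limma adjusted p = 0.00524). It averaged 6.24 ± 0.92 in old MICT and 4.58 ± 0.26 in old control (SD, n = 4 each). Eif4ebp3, another eIF4E-binding protein, rose by 0.75, and the initiation factors Eif4g1 and Eif4b by 0.57 and 0.52. In old control against adult control, 1 of the 76 was higher and 11 were lower, where 4.58% of all features were called higher and 9.07% lower (median -0.24, against -0.15 for all). The 11 became 0 without old controls 1 and 2, 1 without old control 1, old control 2, adult control 1 or adult control 4, 2 without adult control 3, 6 without old control 4, 20 without adult control 2 and 22 without old control 3. In the fit to all arrays, Stk11 fell by 0.75 (limma adjusted p = 0.00894), Akt1s1 by 0.79 (0.0333) and Mlst8, the mTORC1 beta-propeller subunit, by 0.41 (0.024) on the log2 scale, and Prr5l rose by 1.25 (0.00924). In the other 7 comparisons limma called 0 of the 76.

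**Figure D3:**
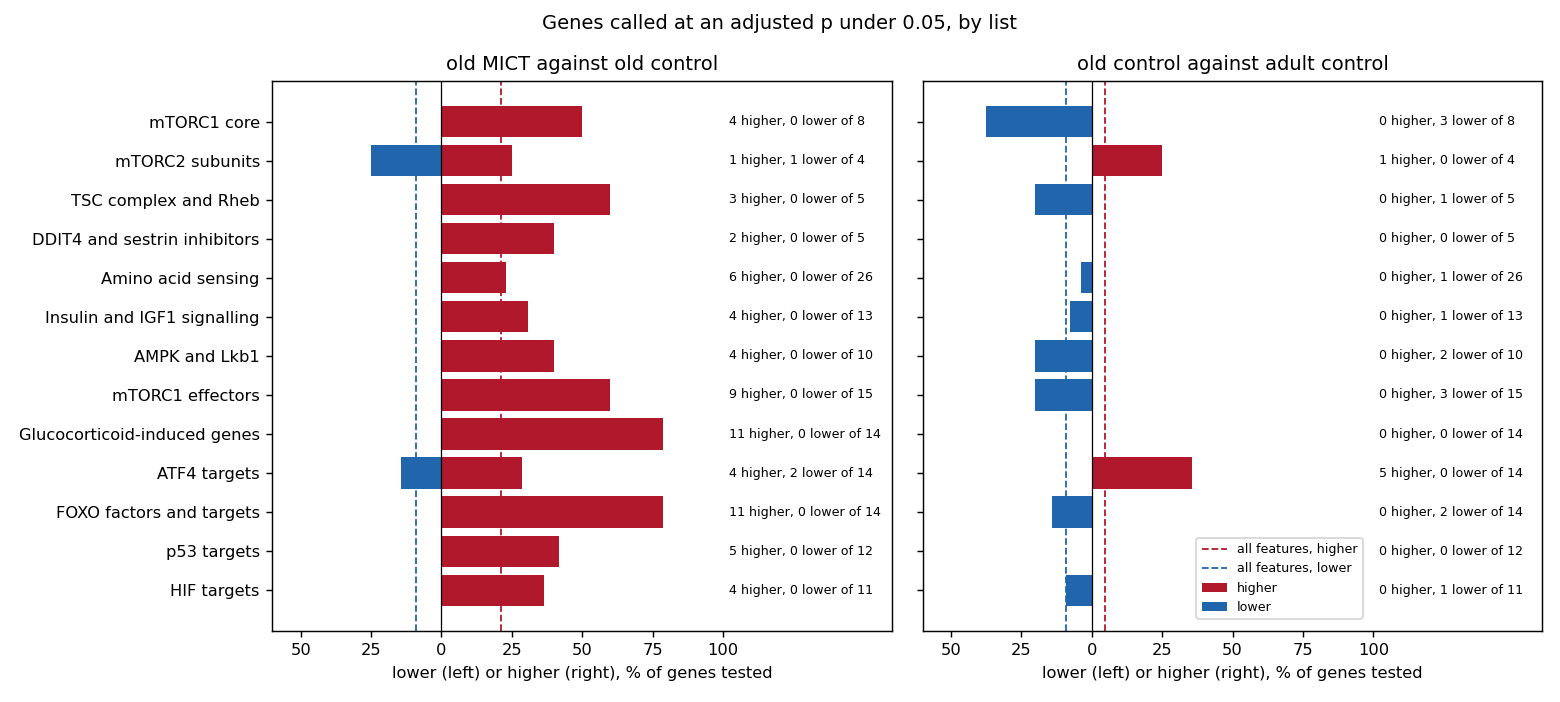
Share of tested genes of each list called higher (right, red) or lower (left, blue), in percent, in old MICT against old control and in old control against adult control, with dashed lines at the shares of all features. The counts beside the bars include 11 of 14 glucocorticoid-induced genes and 11 of 14 FOXO factors and targets higher in old MICT.

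Like the members, the lists below were chosen with earlier results of these data known. Lists of genes known to respond to the same upstream signals as Ddit4 and the sestrins, none holding a member, moved as follows in old MICT against old control. In that contrast 21.2% of all features were called higher and 9.03% lower, with a median difference of 0.19. Of 14 glucocorticoid-induced genes 11 rose and 0 fell (median 1.36), with Cebpd, a transcription factor, at 2.99 ± 0.75 (limma adjusted p = 0.00922), Klf15 at 1.78, Per1 at 1.74 and Klf9 at 1.22. Of 14 FOXO factors and targets 11 rose and 0 fell (median 1.23), with the muscle ubiquitin ligases Fbxo32 at 2.96 and Trim63 at 2.83, Bnip3 at 1.22 and Fbxo21 at 1.11. Without old MICT 1 or 2 the glucocorticoid count was 6 or 5, and without old MICT 1 the FOXO count was 7. Without old controls 1 and 2, 0 glucocorticoid genes and 1 FOXO gene, Fbxo21, were called, with medians of 1.32 and 1.20. Of 12 p53 targets 5 rose (median 0.50), including Eda2r (2.09), Trp53inp1 (1.26), Phlda3 (0.57) and Mdm2 (0.52). Of 11 HIF targets 4 rose (median 0.28), including Bnip3, Pfkfb3 (0.99), Egln1 (0.81) and Pgk1 (0.46). Neither list had a called gene without old controls 1 and 2, with medians of 0.33 and 0.15.

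ATF4 targets were split, with 4 higher and 2 lower of 14 (median 0.15, against 0.19 for all features). Chac1, a glutathione-degrading enzyme, was at 3.09 and Atf4 itself at 1.07, while the serine synthesis enzymes Phgdh and Psat1 were at -1.82 and -1.90. Phgdh and Psat1 were higher in old control than in adult control, by 2.06 and 1.87. They were among 5 of 14 ATF4 targets called higher there, where 4.58% of all features were called higher. Without old controls 1 and 2, 0 ATF4 targets were called in either contrast, and the 5 became 1 without adult control 1, 3 or 4 or old control 2, 2 without old control 1 and 3 without old control 4. No gene of the glucocorticoid, FOXO, p53 or HIF lists was called in old HIIT against old control, where the FOXO list had a median of 0.64 and the glucocorticoid list 0.49, against 0.08 for all features.

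The same arrays were high for the glucocorticoid and FOXO lists and for Ddit4, Sesn1 and Eif4ebp1. The glucocorticoid score was 1.26, 0.64, -0.01 and -0.31 in old HIIT 1 to 4, 2.74, 2.41, 0.38 and 0.14 in old MICT 1 to 4, against 0.05, -0.37, -0.04 and -0.11 in old control 1 to 4. The FOXO score was 1.12, 0.26, -0.09 and -0.27 in old HIIT, 1.70, 1.29, 0.43 and 0.25 in old MICT, against -0.35, -0.43, -0.13 and -0.51 in old control. Mice 1 and 2 were the highest of each old trained group in both scores. Over 23 arrays Ddit4 had r = 0.93 with the glucocorticoid score, 0.86 with FOXO, 0.78 with insulin signalling, 0.75 with ATF4, 0.63 with p53 and 0.29 with HIF. Sesn1 had 0.94, 0.91, 0.74, 0.81, 0.66 and 0.31, and Eif4ebp1 0.90, 0.94, 0.74, 0.79, 0.73 and 0.45, in that order. With group means removed the glucocorticoid values were 0.94, 0.94 and 0.85. The ATF4 values were then 0.70, 0.76 and 0.69, and the HIF values -0.05, -0.03 and 0.06. Of the cell marker scores, that of fibroblasts had the largest r in size, -0.77 with Ddit4, -0.75 with Sesn1 and -0.78 with Eif4ebp1. With group means removed these were -0.50, -0.49 and -0.60. These are descriptions over 23 arrays that share groups, slides and a few high mice.

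**Figure D4:**
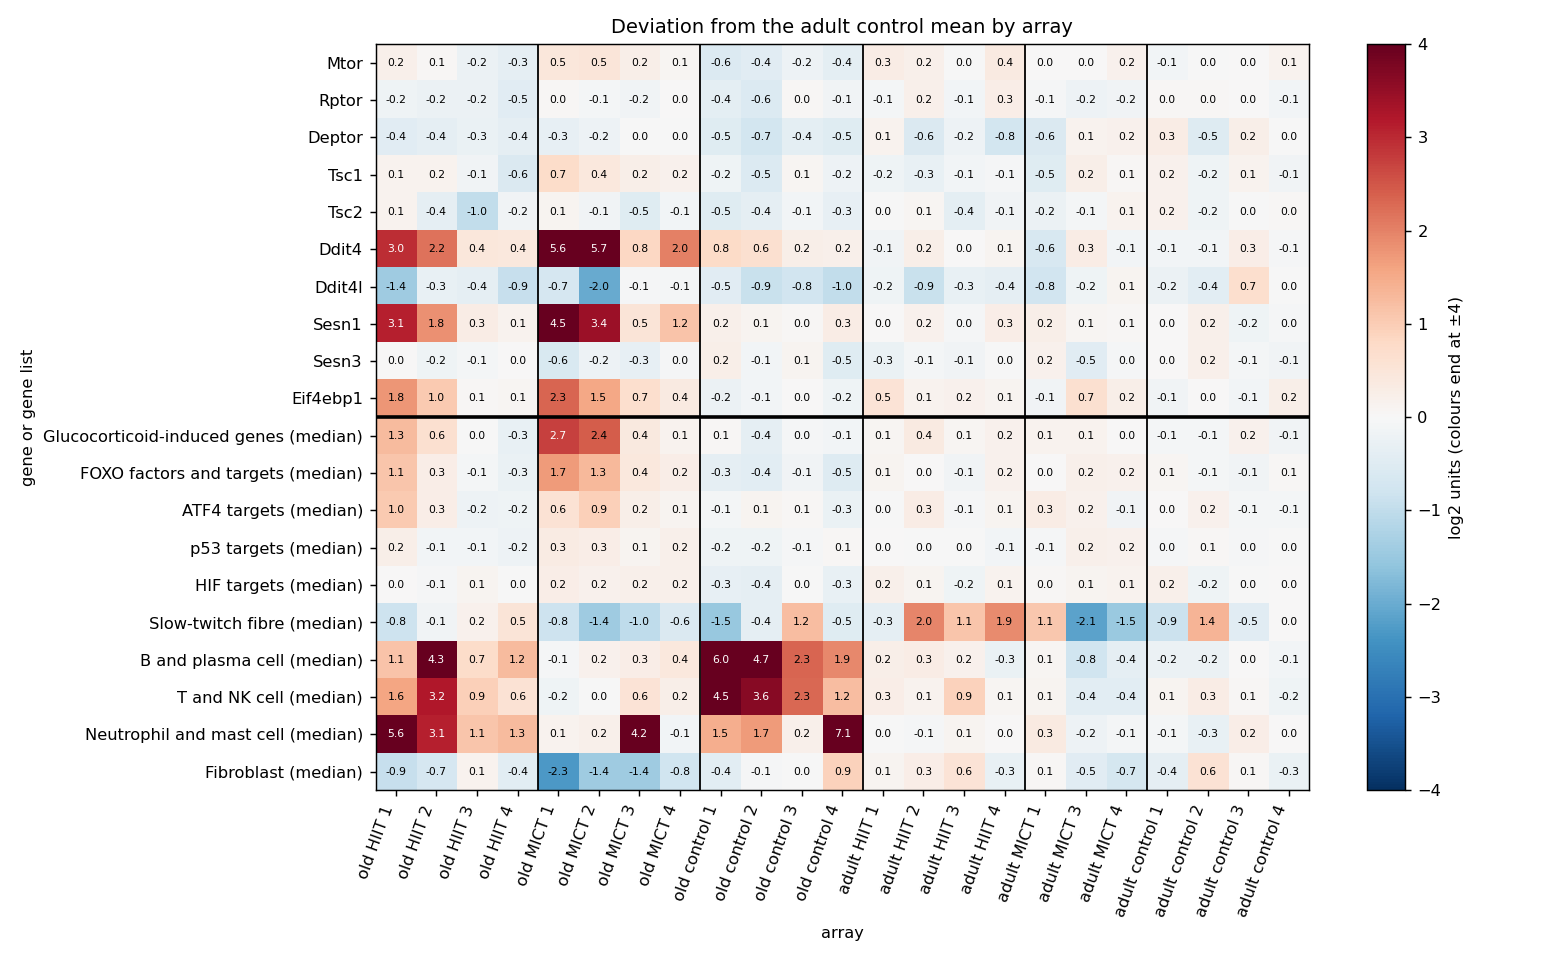
Log2 signal minus the mean of adult controls for the 10 members (upper rows) and the medians of 10 gene lists (lower rows) on each of 23 arrays (columns). Old MICT 1 and 2 are high for Ddit4, Sesn1 and the glucocorticoid list (2.74 and 2.41), and old controls 1 and 2 are high for B and plasma cell genes (6.03 and 4.74).

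Among the members themselves, Ddit4 and Sesn1 had r = 0.96 (rho 0.66) over 23 arrays and 0.93 with group means removed. Sesn1 and Eif4ebp1 had r = 0.92 (rho 0.43), and Ddit4 and Eif4ebp1 0.87 (rho 0.47). Mtor and Eif4ebp1 had r = 0.67 and rho 0.80, and Tsc1 and Eif4ebp1 r = 0.72 and rho 0.63. Of 15464 other named features, those most like Ddit4 by Pearson r over 23 arrays were Cebpd (0.98), Lrrc58 (0.97) and Arrdc3 (0.97), and those most like Sesn1 included 2410006H16Rik and Cebpd (0.97 each). Eif4ebp1 was most like Gpatch1 (0.97), Gucd1 (0.96) and Sidt2 (0.96), Mtor like Fam98a (0.93), Bag3 (0.92) and Ube2o (0.92), and Tsc1 like Zbtb44 (0.95), Mepce (0.94) and Clint1 (0.94).

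Markers of other cells also differed between old MICT and old control, where 21.2% of all features were called higher and 9.03% lower. Of 7 tested B and plasma cell genes 5 were lower in old MICT (median -2.69), and their summed signal, in multiples of the array's 75th percentile, was 0.915 to 1.86 in old MICT and 2.25 to 54.5 in old control. Of 10 T and NK cell genes 7 were lower (median -3.22, sums 6.01 to 7.86 in old MICT and 6.98 to 23.4 in old control). Of 8 macrophage genes 4 were lower, of 10 neutrophil and mast cell genes 3 were lower, of 7 fibroblast genes 5 were lower and 1 higher, and of 10 skeletal muscle genes 3 were higher (median 0.42). Without old controls 1 and 2, 1 B and plasma cell, 1 T and NK cell and 4 fibroblast genes were called lower, and 0 skeletal muscle genes were called. Of 3 liver markers tested 1 was lower, and no slow-twitch, adipocyte, tendon or endothelial marker was called. No B, T or NK marker list was above background in full on every array, with 2 of 8 and 4 of 10 measured markers so detected. With lymphocyte, adipocyte and slow-twitch scores as covariates the differences in old MICT were 3.19 for Ddit4, 2.52 for Sesn1, 1.34 for Eif4ebp1, 0.71 for Mtor and 0.47 for Tsc1, at limma adjusted p-values of 0.252 to 0.469. The fibroblast score, -2.31 to -0.79 in old MICT and -0.43 to 0.93 in old control, was not among these covariates.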

How the data were processed

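Per the file headers, the deposited intensity of each spot is the processed signal of Agilent Feature Extraction 12.0.3.1, background subtracted and detrended within each array by the authors. It was not scaled between arrays. A deposited series table of the same arrays holds a score per spot whose making is not given in the sources used here. Its correlation with log10 of the processed signal was 0.99954 or more on each array, and it served as an alternative.

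Of 62976 spots, 3671 controls were left out, and 283 of 55681 probes were dropped for flagged spots. Log2 values of the deposited intensity were taken and each array's 75th percentile was subtracted. Probes well above background on at least 3 arrays were tested (31941), and 47.2% to 58.9% of spots per array were well above background. Symbols came from a RefSeq table of GRCm38.p6, used for names and promoters, and 28331 of 29786 RefSeq probes matched. The brightest probe stood for a gene, giving 23707 features.

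limma 3.58.1 in R 4.3.3 fitted 6 group means to all 23 arrays with an intensity trend, in 9 comparisons with 2-sided tests and Benjamini-Hochberg adjustment over all features. The fit was tested on simulated data. The number of arrays limits the precision, and p-values measure the spread between these samples. Named genes were the 10 members, up to 4 called genes per list with the smallest p, and the 3 genes most like each called member. Members and lists were chosen with earlier results of these data known. Over all groups, r of same-number arrays of different groups ran from -0.44 to 0.40 (median 0.04). For other numbers it ran from -0.60 to 0.58 (median -0.03). These values pool all groups, so a link by replicate number within the old trained groups alone was not tested. The highest r between 2 arrays was 0.9923, so no array was a copy of another. A feature that the naming rule selected for its likeness to Sesn1 is not reported here.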

Additional observations from a re-analysis of the deposited data

Results flagged for a closer look

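Within groups of 4 arrays, 3 values stood apart from the other arrays of their group by Dixon's criterion, among 50 member and group combinations tested, of which chance alone marks about 1 in 20. Rptor was 2.34 in adult control 4, against 2.49 to 2.51 in the other adult controls. Ddit4 was 3.18 in adult control 3, against 2.78 to 2.84 in the other adult controls. Eif4ebp1 was 5.63 in adult HIIT 1, against 5.21 to 5.26 in the other adult HIIT mice. The paired high arrays of old MICT and old HIIT were not marked, because that criterion looks for a single array.

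The response of Rptor to MICT differed by 0.35 log2 units between old and adult mice, with every old MICT array above the old control mean and every adult MICT array below the adult control mean. The difference itself was not called (limma adjusted p = 0.215), and without old controls 1 and 2 it was 0.13 (0.714).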

How the results depend on the processing

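Old MICT against old control had 5 members called, and 0 with only the groups compared, 0 without old controls 1 and 2, 0 with covariates for cell composition, and 3 with the deposited value table. An additive model of age, training and slide called 0 members for its MICT value. That value contains no old control array, so it does not check this contrast. In the additive model and in the fits with only the groups compared and with covariates, limma called 0 features at all, against 7166, and it called 398 without old controls 1 and 2. The cause was not tested, and 2 of these fits hold smaller numbers of arrays. Leaving out 1 array at a time gave 3 to 6 called members, with 3 without old MICT 1. The 5 members kept their direction in all 37 alternatives, a count that includes the additive model, which does not check this contrast. Old control against adult control had 0 members called, 1 with quantile scaling, 3 with array weights (32.3% of features) and 0 to 2 with 1 array left out. Adult HIIT against adult MICT had 0, and 2 with array weights (13.8% of features). The response to MICT in old minus adult mice had 0, 1 with array weights (10.4% of features) and 0 to 1 with 1 array left out. The other 5 comparisons had 0 called members under every alternative run for them, leaving out arrays included, and the additive model gives no value for the 2 differences of responses. In old MICT against old control, leaving out 1 array lowered the genes called higher from 4 to as few as 2 in the mTORC1 core, insulin, AMPK and HIF lists. The count fell from 3 to as few as 1 for TSC and Rheb and from 5 to as few as 3 for p53 targets. With the replicate number as a block, all 5 calls of old MICT against old control held (5 members, 7263 features), and the block changed no member's call in any comparison. Features called in that contrast fell to 4117 with normexp background correction and 4107 with the deposited table, with 5 and 3 members called. Quantile and normexp scaling moved the median of all features by at most 0.04. The arrays' number, 3 or 4 per group, limits what can be detected, and every member was above background on all arrays.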
